A study of Arabidopsis thaliana with 12 samples.

Results

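The effect of losing the chromatin remodelling ATPase BRAHMA (BRM) was examined in shoots that cannot make normal amounts of gibberellin (GA), by setting the 3 ga1-3/brm-1 arrays against the 3 ga1-3 arrays. These are 6 of the 12 Arabidopsis ATH1 arrays of the study, which also covers the wild type and brm-1 with 3 arrays each. The arrays were chosen by their genotype labels alone, and all 16764 probe sets that are not array controls, of 16824 in the table, were compared. RNA came from shoots of seedlings aged 18 days that were grown together on agar medium with sucrose. The ga1-3 plants carry a mutation of GA1, which encodes the first enzyme of GA synthesis, introgressed into Columbia-0. The ga1-3/brm-1 plants carry the same mutation together with brm-1, a null insertion allele of BRM, so both groups lack GA1 function and differ in BRM. They were selected after a cross between brm-1 heterozygotes and ga1-3, so the groups may also differ in other segregating DNA. Homozygous brm-1 plants are sterile, and plants of both brm-1 genotypes were therefore picked by genotyping from segregating families. Seeds of ga1-3 background lines were soaked in gibberellic acid before sowing, which applies to both groups compared here but not to the wild type or brm-1. The 3 arrays of a genotype are biological replicates of plants grown at the same time, and p-values measure the spread between them only.

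BRM is the motor subunit of SWI/SNF complexes, which use ATP to slide or evict nucleosomes and thereby alter the access of transcription factors to DNA. Gibberellins promote stem, leaf and hypocotyl growth. They bind GID1 receptors, which leads to destruction of the DELLA repressors through the F-box protein SLY1. When GA is low, DELLA proteins persist and transcription of GA20-oxidase, GA3-oxidase, GID1 and SCL3 genes increases, so that a GA-deficient plant expresses these genes at high levels.

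Loss of BRM in the ga1-3 background changed 3495 probe sets, which is 20.8% of those tested, by more than 1.5-fold with a limma p below 0.05 after adjustment. Of these, 1809 were higher (10.8%) and 1686 lower (10.1%) in ga1-3/brm-1. The values are log2 signals, so that a difference of 1 is a 2-fold change, and a probe set that meets both thresholds is called here. The median log2 fold change was 0.99 among the higher calls and -0.86 among the lower calls, beside -0.03 over all probe sets, and the median standard error was 0.14. Changes over 4-fold were found for 208 higher and 100 lower probe sets. Among the higher calls 553 had a mean in ga1-3 under 4.7 (the table's 26th percentile), which is called low signal here, and among the lower calls 362 had a ga1-3/brm-1 mean below it. The 3 arrays of one genotype lay entirely above or below those of the other for 8110 probe sets, or 48.4%, with 3700 higher (22.1%) and 4410 lower (26.3%) in ga1-3/brm-1. Of the 3495 calls, 98.6% were separated in this way. In simulated data of this design with normal noise, 200 probe sets were changed 2-fold and 200 4-fold in ga1-3/brm-1. Of these, 78% and 96% were called. Far fewer probe sets changed there than were called here, so the rates may differ for the real data.

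Replicate arrays correlated at 0.983 to 0.995. For the actin, GAPDH and ubiquitin controls, the 3' signal exceeded the 5' signal most on the third ga1-3 array (by 6.38, 3.71 and 1.46 on the log2 scale, where the other 11 lay between 5.44 and 5.97, 2.66 and 3.45, and 0.99 and 1.4), and among brm-1 arrays the third lay apart from the others. The part of either array's state in the results was not tested beyond leaving it out. Without the third ga1-3 array 3242 probe sets were called, which included 82.5% of the 3495. The platform table named 1 gene for 9267 probe sets, of which 9.86% were higher and 9.98% lower. A further 1671 were named only through the study's own tables, which list genes selected on these same arrays, and of those 18.6% were higher and 31.9% lower. Counts over a gene list that holds such members are therefore not independent evidence of its direction. No name was found for 5439 probe sets, of which 10.2% were higher and 3.53% lower. The 4 photosynthesis and photorespiration genes measured among the shoot markers had log2 fold changes between -0.38 and -0.30. Their arrays were separated, with all lower in ga1-3/brm-1, but none reached the fold threshold. RCA, which encodes RuBisCO activase, had a log2 mean of 14.46 in ga1-3 and 14.09 in ga1-3/brm-1 (adjusted p = 0.0135), and PRK, phosphoribulokinase, 12.69 and 12.33 (adjusted p = 0.00671). Of the 10 root markers only PYK10 was matched to a probe set, with means of 11.58 ± 0.22 (SD, n = 3) and 12.43 ± 0.25, with an adjusted p of 0.0581. It would have been called without wild-type replicate 1 or 2 or without brm-1 replicate 1 or 2, and the part of either marker shift in the results was not tested. In whole shoots, fewer cells of a type and less RNA per cell cannot be told apart.

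The BRM transcript itself was lost. Its log2 signal was 8.28, 8.22 and 7.93 on the 3 ga1-3 arrays and 2.72, 3.01 and 2.92 on the 3 ga1-3/brm-1 arrays. This is a log2 fold change of -5.26 ± 0.11 (standard error), with an adjusted p of 3.92e-09, and all 3 ga1-3/brm-1 arrays matched their label. Of 13 SWI/SNF genes listed, 8 were matched to a probe set, 4 of them were lower and none was higher, and their median was -0.62 on the log2 scale. Both the count and the median include BRM itself, the mutated gene. Over all probe sets 10.1% were lower and 10.8% higher. CHC1, which encodes a subunit of the complex, gave 9.12, 9.09 and 8.93 in ga1-3 and 8.22, 8.48 and 8.26 in ga1-3/brm-1. It fell by 0.72 on the log2 scale (SE 0.10, adjusted p = 0.000612). CHR23, a related ATPase gene, fell by 0.83 (adjusted p = 0.0121). AT3G01890, a paralog of CHC1, fell by 0.81 and had an adjusted p of 0.0288, but its signal was low in the double mutant and the call was lost without ga1-3 replicate 2 or 3 (0.0954 and 0.0905) or ga1-3/brm-1 replicate 1 or 2 (0.0986 and 0.0622). The core subunit genes SWI3A, SWI3D and BSH had log2 fold changes of -0.09, 0.03 and -0.11 and were not called. SWI3B had -0.53 with an adjusted p of 0.00738, short of the fold threshold.

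Of 5 measured genes of GA synthesis, GA3OX1 and GA20OX1 were lower in ga1-3/brm-1 and the other 3 were not called. GA3OX1, which encodes the enzyme of the last step to bioactive GA, had log2 signals of 8.99, 9.09 and 8.56 in ga1-3 and 7.36, 7.39 and 7.95 in ga1-3/brm-1. The groups did not overlap, and the log2 fold change was -1.31 ± 0.18 (adjusted p = 0.000435). The double mutant nevertheless remained above the wild-type mean of 4.93 and the brm-1 mean of 2.82. GA20OX1, a GA20-oxidase gene acting upstream, gave 6.89, 6.70 and 5.60 in ga1-3 against 4.87, 5.07 and 5.29. It fell by 1.32 (SE 0.29, adjusted p = 0.00591), and its lowest ga1-3 value was that of the third array. GA20OX2, another GA20-oxidase gene, had means of 9.23 ± 0.32 and 8.67 ± 0.05 (SD, n = 3). Its log2 fold change of -0.56 had an adjusted p of 0.023 but missed the fold threshold. GA20OX3 had -0.86 ± 0.40 with overlapping arrays, and it moved to -0.56 without ga1-3 replicate 2 and to -0.41 without ga1-3/brm-1 replicate 2. GA3, which encodes ent-kaurene oxidase of the early pathway and is not the hormone of that name, had -0.28 ± 0.13, not called. All 5 measured synthesis genes were named through the study's tables. Without ga1-3 replicate 3 or without ga1-3/brm-1 replicate 1, 4 of them were lower in place of 2. None of the 7 GA2-oxidase genes of GA inactivation was matched to a probe set, nor was GA1.

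In GA signaling, SCL3 was the clearest change. SCL3, a GRAS protein that works against DELLA repression, had log2 signals of 8.79, 8.95 and 8.64 in ga1-3 and 7.88, 7.87 and 7.51 in ga1-3/brm-1, so that the arrays were separated. It fell by 1.04 (SE 0.13, adjusted p = 0.000252), from a ga1-3 level above the wild-type mean of 7.32 to one of 7.75. The 3 receptor genes GID1A, GID1B and GID1C had log2 fold changes of -0.10, 0.16 and -0.26 and none was called. The DELLA genes GAI and RGA1 had -0.11 and 0.13, also not called. SLY1 and SPY, whose products act against and for DELLA repression, had -0.51 (adjusted p = 0.00615) and -0.38 (0.0103), both short of the fold threshold. SNE, a homolog of SLY1, fell by 0.85 from a mean of 3.01, which is already low signal. That call was lost without ga1-3 replicate 1 or 2 (adjusted p = 0.101 and 0.115) or ga1-3/brm-1 replicate 1 or 3 (0.1 and 0.0984), and without ga1-3 replicate 2 the log2 fold change was -0.55. In all, 2 of 9 measured signaling genes were lower (10.1% over all probe sets) and none was higher, with a median of -0.26.

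The study followed 4 further GA-responsive genes, all named through its own tables, and each was called. OFP16, an ovate family transcription regulator, gave 7.95, 7.74 and 8.14 in ga1-3 and 5.59, 5.89 and 6.38 in ga1-3/brm-1, and fell by 1.99 (SE 0.20, adjusted p = 8.72e-05). EXPA5, an expansin that loosens cell walls, fell by 0.86 from 5.24 ± 0.19 to 4.38 ± 0.12 (SD, n = 3; adjusted p = 0.00326). Both were thus lowest in the double mutant among the 4 genotypes. CYS2, a cysteine protease inhibitor, moved the other way, with 7.35, 7.5 and 6.52 in ga1-3 and 9.27, 9.69 and 9.68 in ga1-3/brm-1 (log2 fold change 2.42 ± 0.26, adjusted p = 0.00012). LTP2, a lipid transfer protein gene, rose by 1.35 from a mean of 12.06 to 13.41 (adjusted p = 0.00206). These 2 genes were highest in the double mutant.

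**Figure D1:**
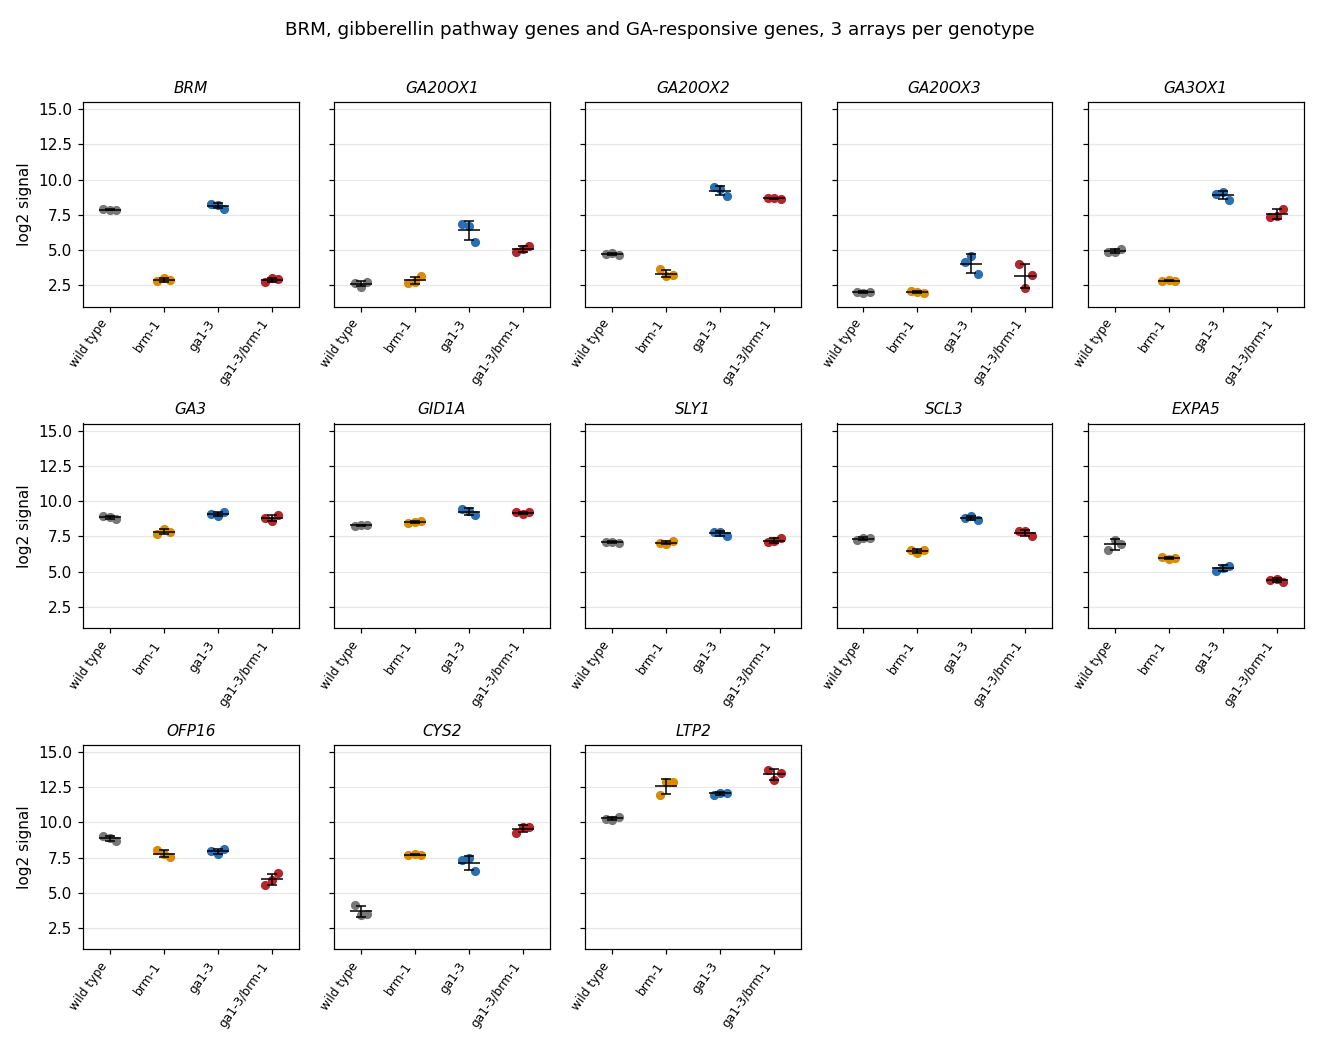
Log2 signal (vertical axis, the same in every panel) of BRM, 8 GA pathway genes and 4 GA-responsive genes on the 3 arrays of each of the 4 genotypes; points are arrays, and the bar and whiskers are the mean and SD. GA3OX1, GA20OX1 and SCL3 are lower in ga1-3/brm-1 than in ga1-3 on all arrays, yet GA3OX1 stays above its wild-type mean of 4.93.

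The largest rises came mostly from genes with little signal in ga1-3. Rises were ranked only among called probe sets with 1 named gene and separated arrays. The 10 largest were AT2G17850, AT3G29970, AT4G27654, AT4G10270, AT2G22880, AT5G66985, AT2G43590, AT5G17350, AT4G29780 and AT4G33560, with log2 fold changes from 5.81 down to 4.34. AT2G17850 had log2 signals of 2.27, 2.25 and 2.38 in ga1-3 and 9.93, 7.19 and 7.20 in ga1-3/brm-1. It was equally low in the wild type (mean 2.28) and brm-1 (2.25), so that only the 3 double mutant arrays carried signal. AT2G22880, a VQ motif gene, gave 3.06, 2.68 and 2.68 against 8.71, 6.92 and 8.03, but had 6.16 in the wild type and 5.61 in brm-1. All 3 double mutant arrays thus lay above its wild-type mean, and all ga1-3 arrays below it. AT2G43590, a chitinase family gene, gave 3.95, 4.53 and 4.68 against 9.62, 8.77 and 9.28. Of the 208 probe sets over 4-fold higher, 124 had low signal in ga1-3, and 53 of them had low signal in the wild type, brm-1 and ga1-3 alike. For 9 of the 10 genes named here ga1-3/brm-1 replicate 1 had the highest value of the 3, and over the 208 probe sets it was highest for 112, replicate 2 for 18 and replicate 3 for 78. Without that array the log2 fold changes of AT2G17850, AT3G29970, AT5G66985 and AT4G33560 were 4.90, 4.88, 4.16 and 3.63, and all 4 calls were kept. The largest rise of all belonged to a probe set with no gene name.

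All 10 of the largest named falls started from a ga1-3 mean above low signal. Falls of 3.70 or more require such a start because of the signal floor, so this is not a trait of these genes. CRK4, a cysteine-rich receptor-like kinase, led them with 8.27, 9.57 and 8.84 in ga1-3 and 2.34, 5.78 and 2.30 in ga1-3/brm-1 (log2 fold change -5.43 ± 0.79, adjusted p = 0.000672). The second double mutant array was the high one, and without it the change was -6.58. GLYI7, a glyoxalase family gene, gave 9.17, 9.40 and 8.68 against 3.55, 4.14 and 3.76 and fell by 5.27 (SE 0.47, adjusted p = 5.21e-05). CIPK20, a calcium-sensor-regulated kinase, fell by 4.83, and DIN2, a dark-inducible beta-glucosidase, by 4.62. WRKY45, a transcription factor gene, fell by 4.26 from 8.87 ± 0.20 to 4.61 ± 0.19 (SD, n = 3). PAP85, annotated as a storage protein, fell by 4.23, and by 4.84 without ga1-3/brm-1 replicate 2. AT1G54740, AT5G57910 and AT2G03550 had falls of 4.73, 4.52 and 3.70, and AT5G57910 was even across its arrays, with 8.33, 8.42 and 8.22 against 3.74, 3.86 and 3.79. These genes and BRM are the 10 largest named falls, which were likewise ranked only among called probe sets with separated arrays. Of the 100 probe sets over 4-fold lower, 85 were also called lower in brm-1 against the wild type, whereas of the 208 over 4-fold higher 83 were called higher there.

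**Figure D2:**
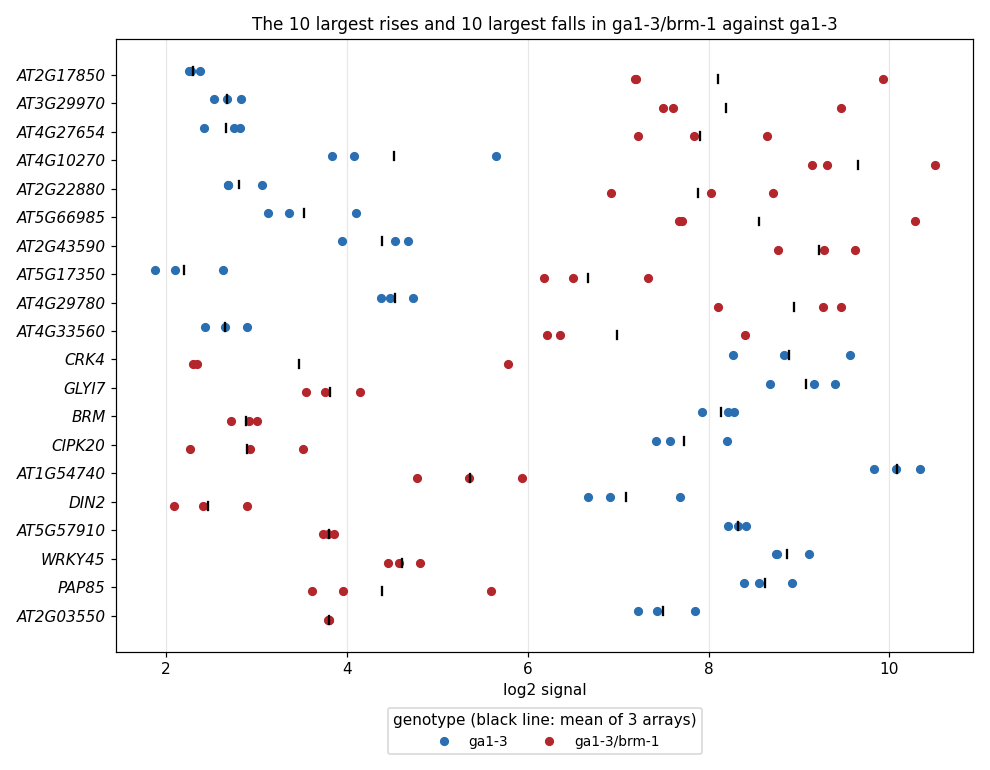
Log2 signal (horizontal axis) of the 10 largest rises (top) and 10 largest falls (bottom) on the 3 ga1-3 arrays (blue) and the 3 ga1-3/brm-1 arrays (red), with black lines for means. Genes were chosen only among those with separated arrays, and ga1-3/brm-1 replicate 1 is the farthest red point for 9 of the 10 rises.

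Among circadian clock genes, all those measured that peak in the morning were lower, and 4 of 8 that peak in the evening were higher. All 7 measured morning genes, which peak around dawn, were lower in ga1-3/brm-1, with a median of -2.14 on the log2 scale, and all were separated on the arrays. LNK2, a transcriptional coactivator of the clock, gave 9.21, 9.30 and 9.67 in ga1-3 and 6.55, 6.39 and 6.50 in ga1-3/brm-1, and fell by 2.91 (SE 0.24, adjusted p = 3.75e-05). PRR9 fell by 2.26, LNK1 by 2.18, PRR7 by 1.89 and RVE1 by 1.48. CCA1 and LHY, the MYB factors at the core of the morning loop, fell by 2.14 (from 6.12, 5.87 and 6.32 to 4.58, 3.43 and 3.86) and 1.80. LHY started from a ga1-3 mean of 4.44, which is already low signal, and its ga1-3/brm-1 arrays were uneven (3.62, 2.15 and 2.16). Of 8 measured evening genes 4 were higher and 1 lower (10.8% and 10.1% over all probe sets), with a median of 0.62. ELF4, a component of the evening complex, gave 5.77, 6.16 and 4.93 against 8.59, 8.65 and 8.86, and rose by 3.08 (SE 0.38, adjusted p = 0.000284). TOC1, PRR3 and GRP7 rose by 1.2, 1.19 and 0.88. PRR5, a pseudo-response regulator, was the member that fell, by 1.39 (adjusted p = 0.000668). GI had -0.52 and was not called, and without the third array of either genotype 2 evening genes were lower in place of 1. In ga1-3 the third array had the lowest value for ELF4, TOC1, PRR3, PRR5, GRP7 and GI, and the highest for PRR9 and LNK2. The 7 morning genes stayed lower and the same number of evening genes, 4, were higher under each array left out. All but GI were named through the study's tables, and the sources used here give no hour of harvest for the arrays, so that a shift in phase and a change in level cannot be told apart.

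**Figure D3:**
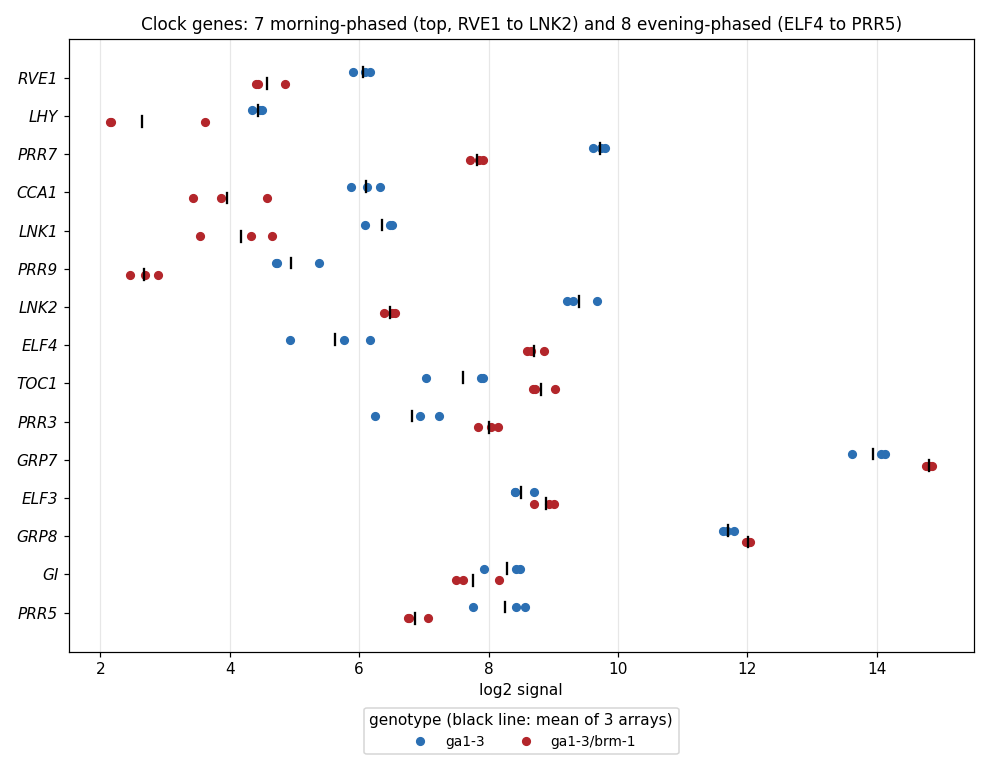
Log2 signal (horizontal axis) of 15 clock genes on the 3 ga1-3 arrays (blue) and the 3 ga1-3/brm-1 arrays (red), with black lines for means. The 7 morning genes at the top all lie lower in ga1-3/brm-1, while ELF4, TOC1, PRR3 and GRP7 lie higher and PRR5 lower.

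Light signaling and SAUR genes were called only lower, whereas the called Aux/IAA and GH3 genes went both ways. Of 8 light signaling genes 5 were lower and none higher, with a median of -0.93. The study's tables named 7 of the 8, among them all 5 lower ones. Of all probe sets named only that way, 31.9% were lower. The 1 gene that the platform table named had 0.17 and was not called. PIF5, a bHLH factor that promotes elongation, gave 10.94, 10.79 and 10.74 in ga1-3 and 9.38, 9.43 and 9.55 in ga1-3/brm-1, and fell by 1.37 (SE 0.10, adjusted p = 1.7e-05). PKS2, PAR1 and SPA1 fell by 1.09, 1.06 and 0.90. PKS4, at low signal in both groups, had -0.96 with an adjusted p of 0.0433. Its call was lost without each of 9 arrays, and without ga1-3 replicate 3 the value was -0.50. The photoreceptor gene CRY1 had -0.42 and was not called. Among the auxin-inducible SAUR genes, whose products favour cell expansion, 9 of 11 were lower and none higher, with a median of -1.22. SAUR16 gave 8.70, 8.73 and 8.53 against 6.39, 6.14 and 6.58, and fell by 2.28 (SE 0.21, adjusted p = 5.78e-05). SAUR9, SAUR23 and SAUR15 fell by 2.19, 1.99 and 1.61. Of these 11 genes, 10 were named through the study's tables, and the related members SAUR63 to SAUR67 may share cross-hybridising sequence. Aux/IAA and GH3 genes moved less evenly, with 2 of 17 higher, 4 lower and a median of -0.47. Of the 17, 11 were named through the study's tables, with 1 of the higher and 3 of the lower calls among them. IAA17 and IAA29, repressors of auxin response, fell by 1.31 and 1.27, while IAA28 and the auxin-conjugating enzyme gene GH3.17 rose by 1.27 and 0.92. IAA29 started from low signal in ga1-3. Without ga1-3 replicate 3 only 2 of the 17 were lower. In the brassinosteroid list BES1, a transcription factor, rose by 1.19 (adjusted p = 4.31e-05), whereas CPD, of brassinosteroid synthesis, and BAS1, of its inactivation, fell by 0.85 and 1.29.

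Genes of cell wall loosening were split, with expansins mostly higher. Of 13 expansins 8 were higher and 1 lower, and of the 10 that the platform table named, 7 were higher and none lower, with a median of 1.29 beside -0.04 over all probe sets named by that table. EXPA15 gave 4.65, 4.48 and 3.51 in ga1-3 and 5.81, 6.10 and 6.62 in ga1-3/brm-1, and rose by 1.96 (SE 0.31, adjusted p = 0.00107). EXPA9 gave 5.35, 5.56 and 5.08 against 6.68, 6.59 and 6.66 and rose by 1.32. EXPA4 rose by 2.70 (adjusted p = 0.00938) and by 1.87 without ga1-3 replicate 3, whose value of 3.69 lay far below 6.17 and 6.20. EXPB3 and EXPA16 rose by 1.75 and 1.53. The one that fell was EXPA5, the GA-responsive expansin described above. Of 15 XTH genes, which encode enzymes that cut and rejoin xyloglucan, 5 were higher and 1 lower, with a median of -0.15. The counts of both families stand beside 10.8% higher and 10.1% lower over all probe sets. With a second factor in the model 4 were lower in place of 1, and the number higher was again 5. XTH31 gave 4.08, 4.79 and 3.09 against 6.27, 6.82 and 7.01 and rose by 2.71 (SE 0.38, adjusted p = 0.000553). XTH18, XTH19 and XTH32 rose by 2.21, 2.07 and 1.76, and XTH18 by 1.54 without ga1-3/brm-1 replicate 1. XTH30 fell by 0.92 (adjusted p = 0.0126), a call lost without ga1-3/brm-1 replicate 3 (0.05).

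Flowering regulators of both kinds changed. Of 14 measured genes 4 were higher and 7 lower (10.8% and 10.1% over all probe sets), with a median of -0.54. FLC, a MADS repressor of flowering, gave 3.23, 3.31 and 3.23 in ga1-3 and 6.70, 6.89 and 6.19 in ga1-3/brm-1. The rise of 3.34 (SE 0.37, adjusted p = 0.000143) took it past the wild-type mean of 5.15. CO, the long-day activator, gave 2.74, 2.52 and 2.66 against 5.69, 5.16 and 5.45 and rose by 2.79 (SE 0.18, adjusted p = 1.15e-05). CDF3 and CDF2, whose family represses CO, fell by 2.31 and 1.48. CDF1 had -0.08 and was not called, with low signal in both groups (means of 2.94 and 2.85). AGL24 and AGL20, which is also called SOC1, both promoters of flowering, fell by 1.73 and 0.84, and the repressor SVP fell by 0.98. SPL3 rose by 0.92, whereas SPL4 fell by 0.95 (adjusted p = 0.0253) and TOE1 by 0.98 (0.0185). TEM1 rose by 0.74 with an adjusted p of 0.036, and the call was lost without ga1-3 replicate 1 or 2 (0.115 and 0.118) or any of ga1-3/brm-1 replicates 1, 2 and 3 (0.0818, 0.085 and 0.073). Among 4 floral organ genes, SEP3, a MADS gene, gave 5.97, 5.22 and 4.18 against 8.41, 7.02 and 7.44 and rose by 2.50 (SE 0.44, adjusted p = 0.00194). PI fell by 0.98 (adjusted p = 0.0179), but by 0.62 without ga1-3/brm-1 replicate 3, and the call was lost without ga1-3 replicate 2 or 3 (0.0561 and 0.0584). All but AGL24 of these genes were named through the study's tables.

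Stress-related lists were uneven, and their counts stand beside 10.8% higher and 10.1% lower over all probe sets. In the cold response list, named by the platform table throughout, 3 of 6 measured genes were higher and none lower, with a median of 1.18. COR15B, which encodes a chloroplast-protecting protein, gave 6.38, 6.44 and 5.59 in ga1-3 and 8.68, 9.57 and 10.54 in ga1-3/brm-1, and rose by 3.46 (SE 0.61, adjusted p = 0.00191). LTI30, a dehydrin gene, rose by 3.42 (adjusted p = 0.014). COR27 gave 8.11, 8.65 and 6.13 against 9.19, 9.65 and 8.87. Its rise of 1.61 had an adjusted p of 0.0446, the call was lost without each of 10 arrays, and the value was 0.86 without ga1-3 replicate 3. COR15A and COR47 had 0.74 and 0.23 and were not called. In the hypoxia list, 2 of 4 genes were higher. HRA1, a trihelix regulator of the low-oxygen response, gave 2.54, 2.59 and 3.53 against 6.59, 5.74 and 5.08 and rose by 2.91 (SE 0.35, adjusted p = 0.000248). AT4G10270, a wound-induced protein family gene, gave 4.08, 3.84 and 5.65 against 10.50, 9.14 and 9.31 (log2 fold change 5.13 ± 0.55). PDC2, a pyruvate decarboxylase gene, had 0.00 and HRE1 -1.02, neither called, although HRE1 would have been called lower without brm-1 replicate 3. In the salicylate and jasmonate list 3 of 5 were lower. Of these 5, 3 were named through the study's tables, with 2 of the lower calls. PDF1.2, a plant defensin gene, gave 7.43, 7.77 and 8.80 against 5.31, 4.80 and 4.35 and fell by 3.18 (adjusted p = 0.000466). PAD4, a regulator of salicylate signaling, fell by 1.80. EDS16, of salicylate synthesis, fell by 1.13 (adjusted p = 0.0194), and by 0.68 without ga1-3/brm-1 replicate 3, and the call was lost without ga1-3 replicate 2 (0.0636). PR1, the salicylate marker, ranged from 5.97 to 8.78 in ga1-3 and from 6.42 to 8.60 in ga1-3/brm-1, and had 0.03. Of 15 WRKY factor genes 3 were higher and 6 lower. The study's tables named 10 of them, which held 2 of the higher and all 6 lower calls. WRKY60 rose evenly by 1.85 (SE 0.10, adjusted p = 3.39e-06), WRKY53 by 2.22 and WRKY57 by 1.65, against the fall of WRKY45 above. The drought and heat factor gene DREB2A rose by 2.15 (adjusted p = 0.000227).

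Among metabolic lists, whose counts stand beside 10.8% higher and 10.1% lower over all probe sets, glucosinolate genes were higher where called. Of 8 measured genes 4 were higher and none lower, with a median of 1.38. The platform table named 3 of them, with 2 higher and a median of 1.24. MYB28, which activates the aliphatic glucosinolate pathway, gave 8.72, 8.29 and 7.51 in ga1-3 and 9.69, 9.76 and 10.18 in ga1-3/brm-1, and rose by 1.70 (SE 0.27, adjusted p = 0.00102). Its pathway gene CYP79F1 rose by 1.79. AOP3, a side-chain-modifying enzyme gene, rose by 1.69 from 8.09. It had 2.68 in the wild type, and since it lies near GA1 on chromosome 4, linked DNA of the ga1-3 line and the mutation itself cannot be told apart in that level. Because ga1-3/brm-1 came from a cross with brm-1 plants, the groups compared may differ in such DNA, which was not tested. Of 5 flavonoid genes, all named through the study's tables, 3 were lower and 1 higher. MYBL2, a repressor of anthocyanin synthesis, fell by 1.5 (adjusted p = 6.47e-05) and TTG1, an activator, by 1.19. AACT1 (locus AT5G61160), which is only annotated as an anthocyanin acyltransferase gene, fell by 2.29. CHI, chalcone isomerase, rose by 1.06. Of 36 cytochrome P450 genes 4 were higher and 16 lower, with a median of -0.40. Of the 14 that the platform table named, none was higher and 4 were lower, with a median of -0.28. The other 22 were named through the study's tables, with 4 higher and 12 lower. CYP81H1 fell by 2.75, and CYP96A4 and CYP710A2 rose by 2.32 and 1.73. Of 13 glutathione transferase genes 6 were higher and none lower, though 1 was lower without ga1-3 replicate 3 and with quantile or median scaling. The platform table named 9 of them, of which 3 were higher. GSTU7 rose by 1.57 (SE 0.12, adjusted p = 2.7e-05) and GSTU8 by 2.47. UDP-glycosyltransferase genes went both ways, with 9 of 34 higher and 7 lower. UGT85A2 fell by 2.32 and UGT76C2, which glycosylates cytokinins, rose by 1.39. Without ga1-3 replicate 3, 5 of these 34 were higher. Of 8 SWEET sugar transporter genes 1 was higher (12.5%) and 2 lower (25%), counts too small to speak for the family. SWEET4 gave 3.11, 3.1 and 2.14 against 5.96, 6.30 and 6.20 and rose by 3.37 (SE 0.51, adjusted p = 0.000826), whereas SWEET1 and SWEET2 fell by 1.3 and 1.16. Without ga1-3 replicate 1, brm-1 replicate 1 or brm-1 replicate 3, 2 of the 8 were higher. Of 11 light-harvesting and chlorophyll genes 1 was higher (9.09%) and 2 lower (18.2%), or 4 lower without ga1-3/brm-1 replicate 3, with a median of -0.48. The share higher is near that over all probe sets. Of these 11, 7 were named through the study's tables. LHCB4.3 fell by 1.57, and the antenna genes LHCB3 and LHCA1 had -0.49 and -0.56, short of the fold threshold.

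**Figure D4:**
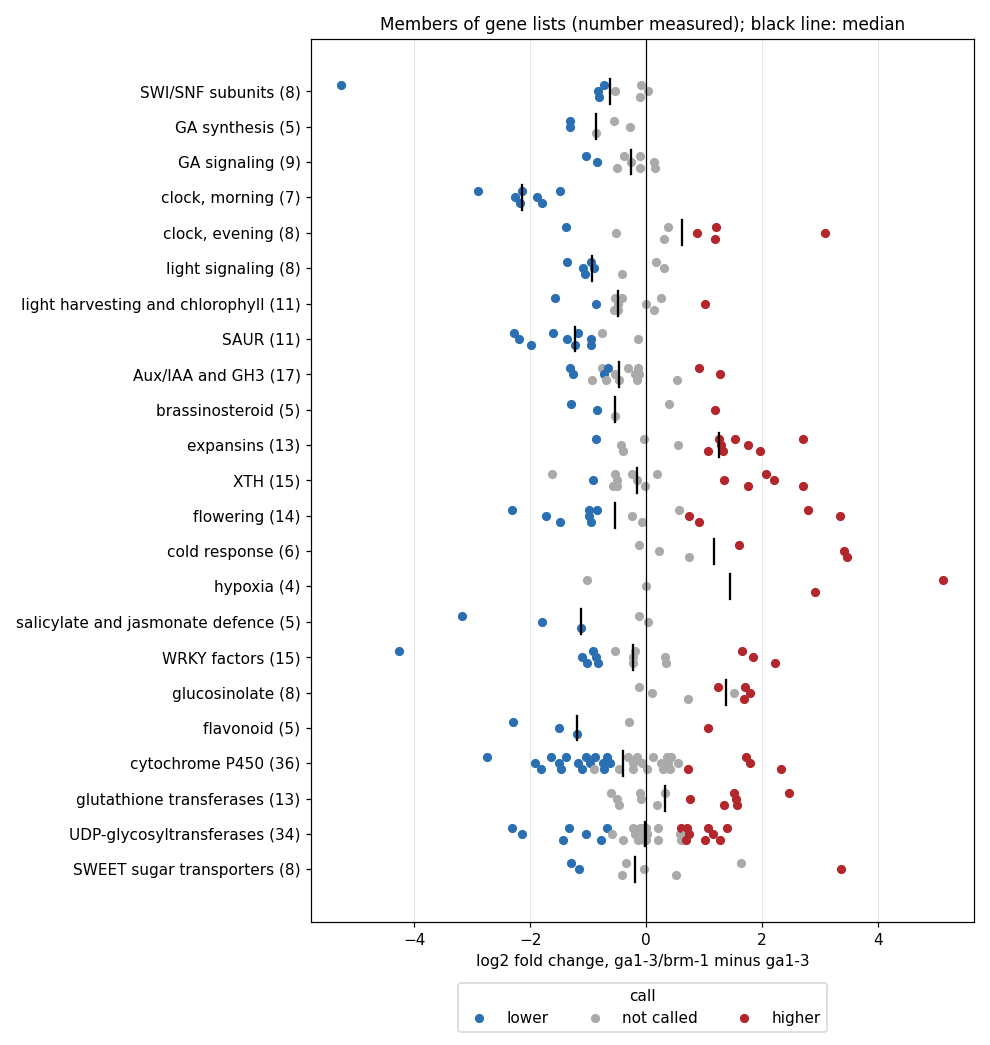
Log2 fold change of ga1-3/brm-1 against ga1-3 (horizontal axis) for each measured member of 23 gene lists, with the number of members in parentheses; red points were called higher, blue points lower and grey points not called, and black lines are medians. Morning clock and SAUR genes lie below 0 throughout, and expansin, cold and glucosinolate lists have medians of 1.26, 1.18 and 1.38.

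Whether brm-1 acts alike with and without GA synthesis was examined with the comparison of brm-1 and the wild type, which shares no array with the one above. There 2459 probe sets were called, or 14.7%, with 1189 higher (7.09%) and 1270 lower (7.58%). Both comparisons called 1295 probe sets, which is 37.1% of the calls in the ga1-3 background and 52.7% of those in the wild-type background. Of these, 97.5% changed in the same direction, with 620 higher and 642 lower in both, and 33 were opposite. The morning clock genes, SAUR16, PIF5, COR15B and WRKY60 were among those called the same way in both. COR15B, for example, had log2 fold changes of 3.46 in the ga1-3 background and 3.42 in the wild-type background, and LNK2 -2.91 and -2.87. A further 2200 probe sets were called only in the ga1-3 background, and the difference itself was significant (adjusted p under 0.05) for 698 of them. This interaction, the brm-1 effect in ga1-3 minus that in the wild type, was called on the adjusted p alone for 1492 probe sets (8.9%), 741 above 0 (4.42%) and 751 below 0 (4.48%). At an unadjusted p under 0.05 it counted 4265. The count lay between 795 without ga1-3 replicate 1 and 1766 without brm-1 replicate 3.

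Genes with the largest interactions show how the backgrounds parted. AT2G17850, AT3G29970 and AT2G22880 had log2 fold changes of -0.03, 0.11 and -0.54 in brm-1, none called, and rose in ga1-3/brm-1 by 5.81, 5.52 and 5.08. DIC2, a mitochondrial dicarboxylate carrier, and AT4G39675 changed in opposite directions. DIC2 fell by 1.64 in brm-1 and rose by 4.17 in ga1-3/brm-1, and AT4G39675 fell by 2.93 and rose by 2.80. FLC was higher by 3.34 in the ga1-3 background and had -0.69 in the wild-type background, an interaction of 4.03 ± 0.52 (adjusted p = 0.00315). Among negative interactions, AT1G52770, an NPH3 family gene, gave 6.46, 7.13 and 5.65 in ga1-3 and 2.50, 3.02 and 3.32 in ga1-3/brm-1, but had only 2.37 in the wild type and 2.42 in brm-1. AIG1, an immune-associated GTPase gene, fell by 2.29 in ga1-3/brm-1 (-1.44 without ga1-3/brm-1 replicate 3, and not called without ga1-3 replicate 2, where the adjusted p was 0.0664) and had 1.36 in brm-1. GLYI7 fell more in the ga1-3 background (-5.27) than in the wild-type background (-1.99). Among the GA genes, the interaction was significant for GA20OX1 and GA3. GA20OX1 fell by 1.32 in ga1-3/brm-1, with an interaction of -1.58 (adjusted p = 0.0393). Its signal was low in the wild type and brm-1 (2.61 and 2.87), which limits any fall that could be seen there. GA3 had -0.28 against -1.04, with an interaction of 0.77 (adjusted p = 0.0273). GA3OX1 had -1.31 against -2.11 and SCL3 -1.04 against -0.87, with interactions of 0.80 and -0.18 that were not significant (adjusted p under 0.05). GA3OX1 ended at low signal in brm-1 (mean 2.82), which limits its fall in the wild-type background.

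**Figure D5:**
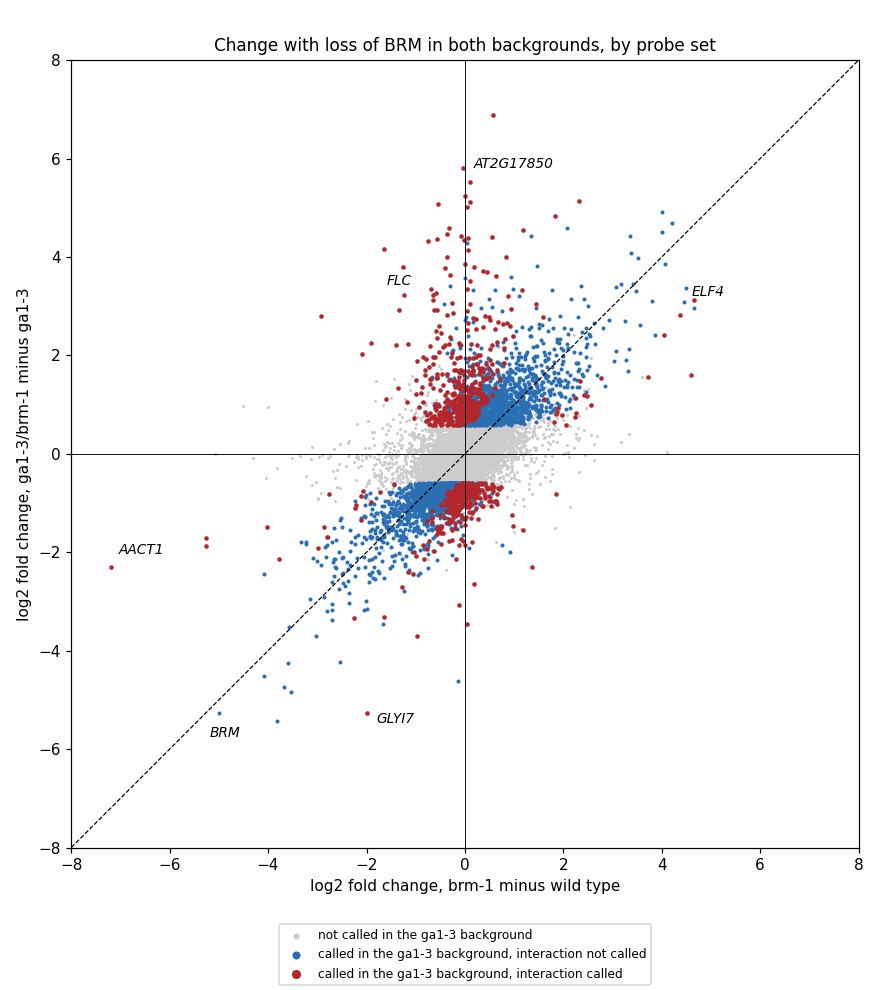
Log2 fold change of brm-1 against the wild type (horizontal axis) and of ga1-3/brm-1 against ga1-3 (vertical axis) for 16764 probe sets; blue and red points were called in the ga1-3 background without and with a significant interaction, grey points were not called there, and the dashed line marks equal change. BRM, at -4.99 and -5.26, lies close to the line, while AT2G17850, at -0.03 and 5.81, and FLC, at -0.69 and 3.34, lie far above it.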

How the data were processed

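Total RNA from shoots of the 4 genotypes was hybridised to 12 ATH1 arrays. The deposited table holds log2 signals after GC-RMA normalization, which the authors made in Partek, and only the probe sets that passed their MAS5 detection filter. For arrays no read depth exists, and the number of arrays limits the precision. No further normalization was applied. The 12 arrays entered a limma 3.58.1 fit (R 4.3.3) whose sole factor was the genotype, with variances moderated by eBayes and p-values adjusted after Benjamini and Hochberg over 16764 probe sets. The study's methods name a second factor without saying what it is, and it enters only as an alternative. Its levels were inferred as the division of the arrays closest to the study's own fold changes (median log2 gap 2.62e-06, next best 0.014). Replicates 1 and 2 of the wild type and ga1-3 shared a level with replicate 3 of both brm-1 genotypes. The other arrays held the other level, so the factor overlapped in part with loss of BRM. Named genes are BRM and the genes the study followed, all GA and SWI/SNF genes measured, the 10 largest rises and falls, the 5 largest interactions in each direction, and up to 4 called members of each other list with those against its majority; 25 further genes, among them RVE1, PRR7, LHY, GRP7, CRY1, EXPA9, SVP, PR1 and the shoot and root markers, were named after their values were seen. SPL4, TOE1 and CDF1 are mentioned besides and are not counted among the named genes. The largest rises and falls were ranked only among called probe sets with 1 named gene and separated arrays. No list gene had more than 1 probe set of its own locus. The probe sets of SAUR23, PRR9, BES1, CYP79F1 and CYP706A1 carry the suffix _x_at or _s_at, so their signals may include related genes. The members and lists were chosen with earlier results of these data known, and the P450, WRKY, DREB, glutathione transferase and glycosyltransferase lists were added after the table was seen. Gene names come from the platform table, then from the study's tables. Genes were ordered along chromosomes with the TAIR10.1 annotation. The fit was tested on simulated data. Alternatives were another normalization or centring, other variance models, a replicate block, 6 arrays only, a filter on dim probe sets, other thresholds, a second factor, and each array left out. Plots used matplotlib 3.10.9 under Python 3.11.15.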

Additional observations from a re-analysis of the deposited data

Results flagged for a closer look

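For 40 of the 163 genes followed by name, the effect of brm-1 differed between the ga1-3 and the wild-type background in a test of the difference itself (limma, adjusted p under 0.05). The values below are this difference on the log2 scale, the effect in the ga1-3 background minus that in the wild-type background, and 28 of them were above 0.

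Among the genes with the largest rises or interactions, positive differences were those of AT2G17850 (5.84), DIC2 (5.81), AT4G39675 (5.72), AT2G22880 (5.63), AT3G29970 (5.40), AT4G27654 (5.24), AT5G66985 (4.98), AT5G17350 (4.84), AT4G29780 (4.51), AT4G33560 (4.35), AT2G43590 (3.01) and AT4G10270 (2.81). Of these 12, AT2G17850, AT3G29970, AT4G27654, AT5G66985, AT5G17350 and AT4G33560 had low signal (a mean under 4.7) in the wild type, brm-1 and ga1-3 alike. AACT1 (AT5G61160) had 4.90, with falls of 7.19 in brm-1 against the wild type and 2.29 in ga1-3/brm-1 against ga1-3. Its starting means were unlike (wild type 9.44, ga1-3 5.36), and it ended at low signal in both brm-1 genotypes (2.25 and 3.07), so the size of its difference is limited by the signal floor. Flowering and floral regulators with a positive difference were FLC (4.03), TEM1 (1.40) and CO (1.2). Stress-related factors were WRKY53 (3.62), HRA1 (2.86), ERF4 (2.21) and DREB2A (1.35), and WRKY53 and ERF4 fell by 1.40 and 0.99 in brm-1 but rose by 2.22 and 1.22 in ga1-3/brm-1. The others were XTH31 (2.22), CYP706A1 (1.74), CCA1 (1.63), RVE1 (1.39), AOP3 (1.52), YAB5 (0.95), GA3 (0.77) and BES1 (0.63).

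The negative differences included those of AIG1 (-3.65), AT1G52770 (-3.51), GLYI7 (-3.27), COR27 (-2.99) and AT4G32870 (-2.96). CYS2 (-1.62), TOC1 (-1.21) and COR27 rose in both backgrounds, and rose less in the ga1-3 background, where their starting level was already above that of the wild type. GA20OX1 (-1.58), PAR1 (-1.43), PRR5 (-1.29), PIF5 (-0.59) and CHC1 (-0.58) fell in the ga1-3 background, where the wild-type background had 0.26, 0.37, -0.10, -0.78 and -0.15. The morning genes CCA1 and RVE1 fell in both backgrounds, and less in the ga1-3 background. CCA1 started from a wild-type mean of 7.51 and a ga1-3 mean of 6.10, RVE1 from 7.50 and 6.05, and all of these fell to low signal, which limits these differences in the same way. Calls of COR27, TEM1, CYP706A1 and AIG1 in the ga1-3 background were lost on leaving out arrays. CYP706A1 rose by 0.72, and lost its call without ga1-3 replicates 1, 2 or 3 (adjusted p = 0.0593, 0.092 and 0.0571) or ga1-3/brm-1 replicates 1 or 2 (0.109 and 0.0526).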

How the results depend on the processing

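With each of the 12 arrays left out, ga1-3/brm-1 against ga1-3 gave between 3092 (without ga1-3/brm-1 replicate 3) and 3598 calls, with 1528 to 1872 higher and 1514 to 1726 lower, and brm-1 against the wild type 2046 to 2465, with 909 to 1194 and 1069 to 1271. The interaction ranged from 795 to 1766, and was over 1.5 times smaller without wild-type replicate 2 (903) or 3 (844), ga1-3 replicate 1 (795) or 2 (963), ga1-3/brm-1 replicate 1 (911) or brm-1 replicate 1 (842). At a fold change over 2 the counts were 1475 (882 higher, 593 lower) in the ga1-3 background and 1227 (603 and 624) in the wild-type background. At an adjusted p under 0.01 brm-1 against the wild type gave 1617 calls, 758 of them higher, and the interaction 283. With the replicate number as a block (replicate block) the interaction was called for 969 probe sets, and ga1-3/brm-1 against ga1-3 for 3393. Deviations of same-numbered arrays correlated at -0.198 to 0.119. No pairing by number showed in them, but with 3 arrays per genotype this check cannot exclude one. With quantile normalization 3523 probe sets were called in the ga1-3 background, 96.6% of the reported ones among them, and with a second factor in the model 3727, with 95.4% among them. No named gene reversed its direction past the thresholds under any alternative. Of 137 named genes that were called, 123 kept their call with each array left out. The interaction could not be run on the 6 arrays of 1 background alone.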

Other observations

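Of 69 probe sets named to plastid-encoded genes, none was called in ga1-3/brm-1 against ga1-3 by limma, 4 had an unadjusted p under 0.05, and the median log2 fold change was 0.07. Among the genes named on chromosomes 1 to 5, the share called lay between 23.1% and 26%. In a window of 20 protein-coding genes on each side of BRM, 22 genes other than BRM were measured, of which 7 were lower and 1 was higher in ga1-3/brm-1, beside 10.1% lower and 10.8% higher over all probe sets. AT2G46140 rose by 1.51 (adjusted p = 0.00591), the largest change in the window apart from BRM. Among those that fell, MPK12, AT2G46220 and CYP86A8 had log2 fold changes of -0.94, -0.94 and -0.89. In a window of the same size around GA1, 3 of 16 genes were higher and none lower.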
